A study of Homo sapiens with 8 samples.

Results

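The genes that make and recycle glutathione were examined for acetylation of histone H3 at lysine 27 (H3K27ac), a mark of active promoters and enhancers. The cells were A549, given control siRNA or siRNA against NRF2. The 7 genes were GCLC, GCLM, GSS, GSR, SLC7A11, GPX2 and GGT1. Overlapping peaks of all 6 deposited lists (1 base or more) were merged into 49186 regions, and every region in the body of one of these genes or within 20 kb of it was taken, which gave 31 regions. Of these, 9 held a transcript start of the gene itself (start regions), 4 held the coding start of a neighbouring gene, and 18 held no coding start (distal regions). Regions of a kind are numbered along the chromosome, and the main start of a gene is that of its MANE Select transcript, or of its Ensembl canonical transcript where it has none.

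A549 is a human lung adenocarcinoma line with a mutated KEAP1 gene, which leaves the transcription factor NRF2 persistently active. Cells were transfected with control siRNA or with an siRNA against NRF2 and harvested after 48 h, in 3 independent experiments that gave 3 control siRNA and 3 NRF2 siRNA libraries. All cells came from the same line and all were transfected. NRF2 siRNA 28 was used in replicate 1, and NRF2 siRNA 30 in replicates 2 and 3. The 2 input samples were not analysed here. Acetylation in a population can be lower because fewer cells carry the mark or because each cell carries less, and these cannot be told apart.

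The lists held 23885 to 41571 peaks. Replicate 1 was the shortest in both groups. Both of its libraries also had far fewer mapped reads than the others, per the study's reporting summary. Its peak names lack the flow cell identifier of the other replicates, for a reason the labels do not give. The siRNA, the read depth and whatever else sets replicate 1 apart cannot be told apart. An siRNA acts on the messenger RNA, so acetylation at the NRF2 gene itself (NFE2L2) does not measure the knockdown, and no RNA was measured in these libraries. The percentile of the NFE2L2 start region ran from 97.9 to 98.2 in control lists and from 94.6 to 97.9 with NRF2 siRNA (a percentile is the share of a list's peaks that a region equals or exceeds in fold enrichment). The start region of NQO1, a quinone reductase and a standard NRF2 target, ran from 99.1 to 99.4 in control lists and from 87.2 to 95.1 with NRF2 siRNA. Its change in rank score of -0.94 had a limma adjusted p of 0.0508, and 0.0223 with the replicate as a block. Among cell type markers, the starts of the epithelial genes KRT8, KRT18 and CDH1 and of the foregut factors FOXA1 and FOXA2 were called in 6 of 6 libraries and that of GATA6 in 5. KRT19, EPCAM, NKX2-1, SFTPB, SFTPC, PTPRC, CD3E and COL1A1 had no called start region in these lists.

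Glutathione is a tripeptide of glutamate, cysteine and glycine that serves as the main small thiol antioxidant of the cell. SLC7A11 imports cystine, the source of the cysteine. GCLC and GCLM are the catalytic and modifier subunits of glutamate-cysteine ligase, the rate-limiting enzyme, and GSS adds the glycine. GSR reduces oxidised glutathione, GPX2 spends glutathione to reduce peroxides, and GGT1 breaks down glutathione outside the cell so that its amino acids can be taken up again. NRF2 binds with a small MAF protein to antioxidant response elements, whose core is written here as TGACNNNGC.

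The core was searched on both strands of the GRCh37 sequence under each region. Of the 67 matches, 6 are printed, chosen after their places were seen. They are the pair 3.1 kb upstream of the GCLC start that kept a peak in every library, the match with an AP-1 core in GCLC start region 2, and the match nearest to the start of GCLM, GPX2 and GGT1. Each is printed on the strand that holds the match, in the order 5′ to 3′, with the 9-base core in capitals and 10 bases on each side.
GCLC, 3152 bases upstream of the main start, chr6:53413037-53413065, + strand: cgcctccccgTGACTCAGCgctttgtgcg
GCLC, 3107 bases upstream of the main start, chr6:53412992-53413020, + strand: ccccgccacgTGACTGCGCgggcccgcct
GCLC start region 2, 71 kb upstream of the main start, chr6:53480842-53480870, - strand: caaatcactgTGACTCAGCacctgtactt
GCLM, 30 bases upstream of the main start, chr1:94375002-94375030, + strand: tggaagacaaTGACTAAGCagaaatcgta
GPX2, 118 bases upstream of the main start, chr14:65409567-65409595, + strand: atccccaggaTGACTTAGCaaaaacaggt
GGT1, 25 bases upstream of the main start, chr22:24999121-24999149, - strand: ttccctgctgTGACCCAGCtcctccttcc
The match 3152 bases upstream of the GCLC main start and that in GCLC start region 2 share the core TGACTCAGC, which contains TGACTCA, the core bound by AP-1.

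Matches to so short a core are frequent. The 31 regions held 67 matches, or 0.399 per kb, beside 0.396 per kb over all regions read. A match was present in 77.4% of the 31 regions and in 52.7% of all regions, but the regions near these genes are long, so each was set beside regions within 10% of its length. GGT1 start region 2 held 6 matches in 2.6 kb, and 0.183% of 3822 regions of like length held as many. GCLC start region 1 and GSR start region 1 held 7 each, as many as 6.32% and 6.58% of regions of like length held. GGT1 start region 1 held 5, a number that 6.56% of like regions reached. The other start regions were not rich in matches for their length. GCLC start region 2 held 3, as many as 68.6% of like regions, and GPX2 and GCLM held 2 and 1, as many as 80.5% and 87.6%. The long SLC7A11 start region held 6, a number that 97.2% of 36 like regions reached, with a mean of 19.1, and the GSS start region held none. In the RefSeq table of promoter windows (GRCh38.p14), which matched GCLC, GCLM, GPX2 and GGT1, 13.3% of 35116 windows held a match. The windows of GCLM and GPX2 held 1 each, that of GCLC none, and 1 of the 2 windows of GGT1 held 1. A match is a stretch of letters and not a measured binding site.

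Peaks were compared by the rank of their fold enrichment, because fold enrichment in lists of different length is not on a common scale. Broad peak lists give a fold enrichment for each called peak and none within it, so this is not a summit height. High and low refer to this value. It depends on how far each peak was called to extend, and on whether a stretch was called whole or in pieces. The percentile of a region is the share of peaks in that library's list whose fold enrichment does not exceed the highest in the region. For testing, the rank was turned into a normal score, and the change is NRF2 siRNA minus control siRNA. The test (limma) was fitted on 32673 regions called in at least 3 of 6 libraries, with p-values adjusted over all of them and a threshold of 0.05. Of the 31 regions, 27 were tested. GCLC distal region 9 passed this filter through the control libraries alone, where it stood at percentiles 37.4, 8.42 and 12.7.

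All 9 start regions had a lower mean score with NRF2 siRNA, beside 5745 of all 9932 tested regions with a coding start. Past the test as lower was 1 of the 9, beside 104 of the 9932, and distal regions went both ways. Over the 27 regions, 1 passed the threshold as lower and 2 as higher, beside 3.39% lower and 2.01% higher over all tested regions. The lower region was GCLC start region 2, and the higher ones were GSR distal region 2 and GSS distal region 1. With the replicate as a block, GCLM start region 1 and GCLC distal region 4 passed as lower too, so that 3 regions were lower and 2 higher, beside 6.62% lower and 5.72% higher over all regions in that fit. An unadjusted p under 0.05 was found for 11 of the 27, beside 22.5% of all tested regions. An adjusted p above the threshold does not show that the groups were alike.

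Counting instead the regions where all 3 NRF2 siRNA scores lay below all 3 control scores gave 10 of 27, beside 13.6% of all tested regions. The opposite, with all 3 above, held for 4 of 27, beside 14.6%. The 13 regions with a coding start included 8 that were apart and lower, beside 13.9% of all regions with a coding start. This count depends on the scale, since by percentile the groups overlapped at GGT1 start region 1 and at the start of its neighbour LRRC75B. The share of all regions apart by percentile was not counted. None of the 13 was apart and higher, beside 6.64%. Of the 14 tested distal regions 2 were apart and lower, beside 13.4%, and 4 apart and higher, beside 18.1%.

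**Figure D1:**
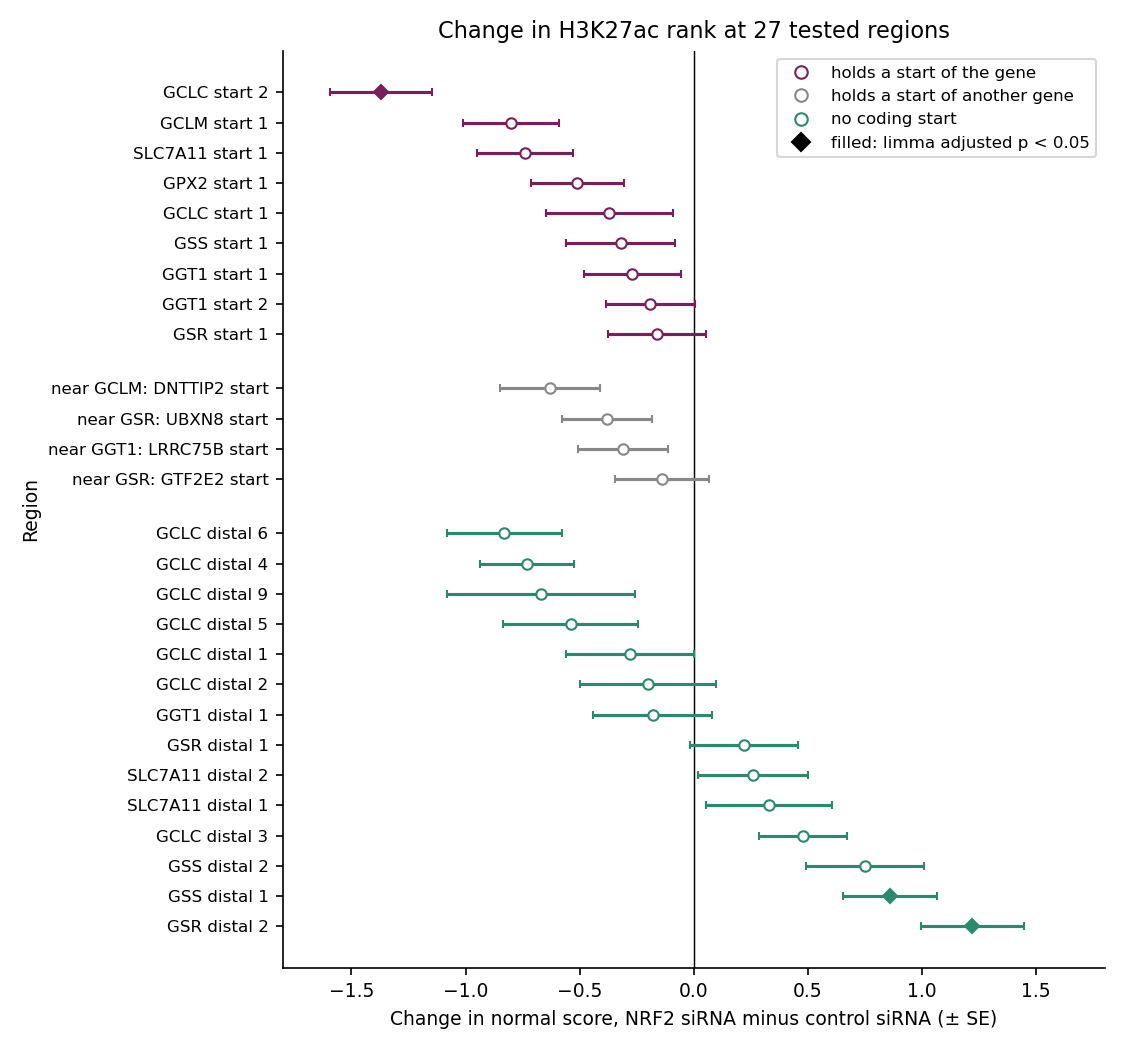
Change in normal score with NRF2 siRNA (horizontal axis, ± SE) at the 27 tested regions, grouped by whether a region holds a start of the glutathione gene, a start of another gene or no coding start. All 9 start regions lie below 0, beside 5745 of all 9932 tested regions with a coding start. The 14 distal regions are split at 7 and 7, and filled diamonds mark the 3 regions with a limma adjusted p under 0.05.

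All 9 start regions and all 4 neighbouring start regions had a negative mean change, beside 5745 of all 9932 tested regions with a coding start. The latter were not matched to the 9 for their level in control lists. The called starts of the cell type markers (KRT8, KRT18, CDH1, FOXA1, FOXA2 and GATA6) also had negative changes, from -0.31 to -0.09, and that of NFE2L2 was -0.20. The median change was -0.37 over the 9 start regions and -0.35 over the 4 neighbouring ones, beside -0.06 over all tested regions with a coding start. In pairs 1, 2 and 3 the start regions had medians of -0.53, -0.44 and -0.52, and all coding start regions had 0.07, -0.04 and -0.15. The 14 distal regions had a median of 0.02, beside 0.07 over all regions with no coding start, and the sign of this small value changed with the processing. A region that neither library of replicate 1 called takes 0.25 in pair 1 from the tied lowest scores alone. This held at GCLC distal region 2, GSR distal region 1 and SLC7A11 distal region 1. The pair 1 median over all regions with no coding start was also 0.25, so small rises in distal regions partly carry this offset.

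**Figure D2:**
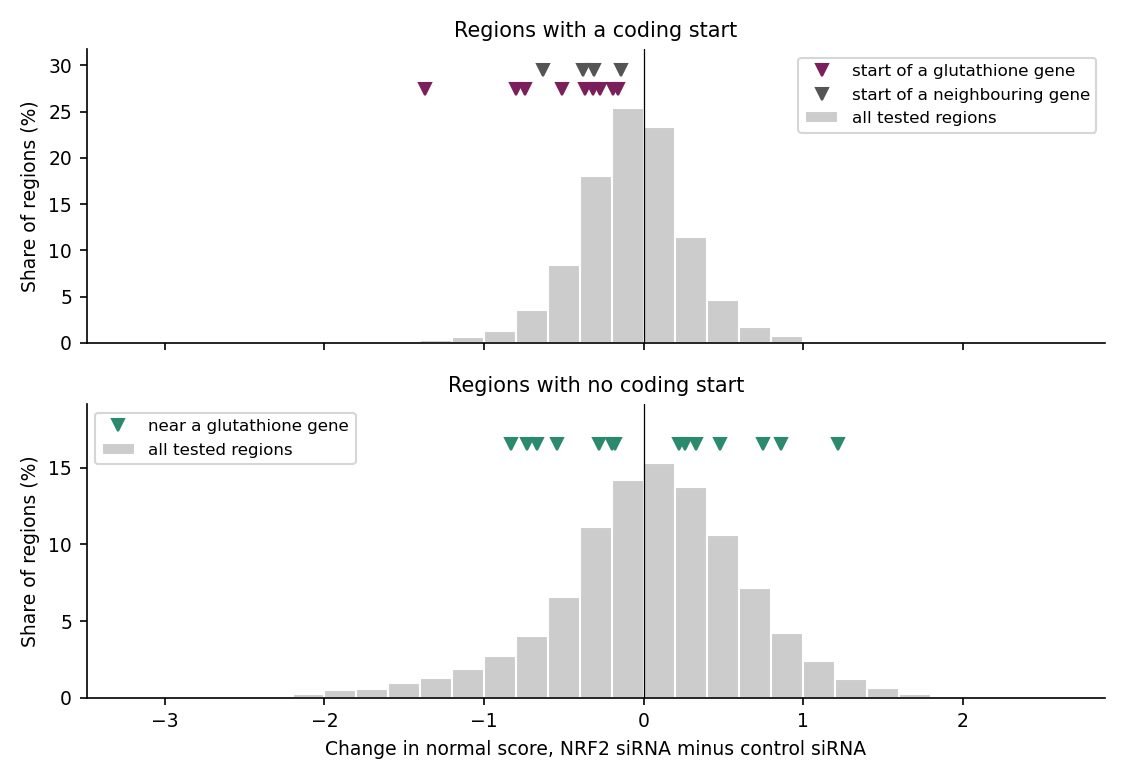
Share of all tested regions (vertical axis, %) by change in normal score in bins of 0.2, for regions with a coding start (top) and with none (bottom). Triangles mark the regions of the glutathione genes and their neighbours. The start regions lie at or left of -0.16, and the distal ones run from -0.83 to 1.22.

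At GCLC, acetylation fell most at a start region far upstream of the main start. GCLC start region 2 (chromosome 6, 53474610 to 53484799) covers an alternative coding start, in a UTR of the gene, and lies 64.7 kb upstream of the main start. It stood at percentiles 99.8, 99.9 and 99.8 of the control lists, among the highest peaks of each. The NRF2 siRNA libraries had it at 83.8, 94.9 and 97.3, so that the groups did not overlap. The score fell by 1.37 (SE 0.222), with a limma adjusted p of 0.0134. The pairs gave -1.75 with siRNA 28, and -1.35 and -1.02 with siRNA 30. With the siRNA 30 pairs alone the change was -1.19 (adjusted p = 0.0167). The single peak there covered 9.76, 8.99 and 10 kb in control libraries and 3.69, 6.68 and 5.16 kb with NRF2 siRNA. The core match shown above lay under the peak in 6 of 6 libraries. The call was lost without control replicate 2 (adjusted p = 0.067), control replicate 3 (0.0623) or NRF2 siRNA replicate 2 (0.0698), at changes between -1.41 and -1.36.

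At the main start of GCLC the groups differed in the shape of the peaks and in the level over the start. The rank of the highest peak of the region differed less. These levels set an unbroken control peak beside shorter NRF2 siRNA peaks, so level and shape cannot be told apart here. GCLC start region 1 (chromosome 6, 53406526 to 53415311) spans UTR and coding exon sequence. In each control library it was 1 unbroken peak, which covered 8.15, 8.22 and 8.45 kb. The NRF2 siRNA libraries had 2, 2 and 3 separate peaks in its place, which covered 2.01, 2.48 and 4.5 kb in all. The highest peak of the region stood at percentiles 86, 78.2 and 83.4 in control lists and 79.9, 63.3 and 65.1 with NRF2 siRNA. These ranges overlapped, and the change of -0.37 did not pass the test (SE 0.278, adjusted p = 0.476). With the length-weighted mean fold in place of the highest peak, the change was -0.70 (limma adjusted p = 0.144). What remained highest with NRF2 siRNA was the peak over the paired core matches about 3.1 kb upstream, which lay under a peak in 6 of 6 libraries. The main start itself was under that same high peak in all 3 control libraries. After NRF2 siRNA the start was under no peak in replicate 1, and under separate peaks at percentiles 41.1 and 39.3 in replicates 2 and 3.

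**Figure D3:**
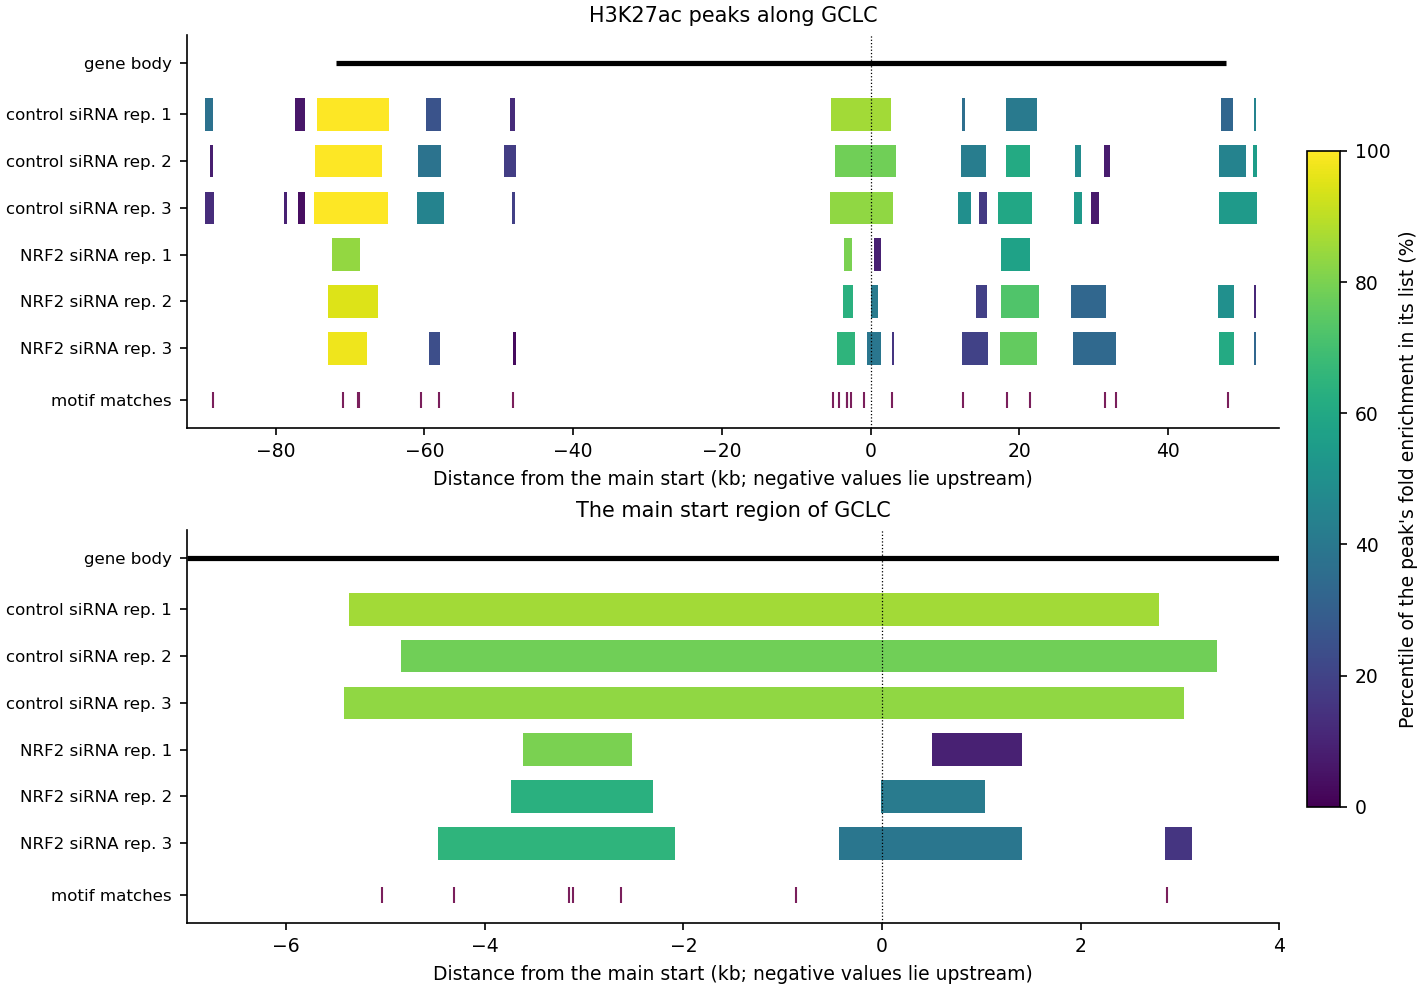
Peaks of each library along GCLC (top) and around its main start (bottom), by distance from the main start in kb. Bars are called peaks, coloured by the percentile of their fold enrichment in their own list, the black line is the gene body and ticks mark core matches. The control peak across the main start is unbroken and the NRF2 siRNA peaks leave a gap between the matches 3107 and 3152 bases upstream and the start.

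Distal regions of GCLC went in different directions. GCLC distal region 4, in an intron 11.8 kb downstream of the main start, stood at 36.3, 41.9 and 49.4 in control lists. It was not called in NRF2 siRNA replicate 1 and stood at 18.8 and 19.6 in the others. Its change of -0.73 had an adjusted p of 0.0765, and 0.041 with the replicate block. Distal region 6, in an intron 57.3 kb upstream of the main start, stood at 25.6, 38.1 and 44.8 in control lists and was called with NRF2 siRNA in replicate 3 alone, at 23.7. Its change was -0.83 (adjusted p = 0.091). Distal region 3, over exons 17.2 kb downstream of the main start, had the highest mean level of the distal regions of GCLC and the opposite direction. It stood at 40.7, 60.6 and 59.5 in control lists and at 57.8, 72.5 and 75.8 with NRF2 siRNA, a change of 0.48 (adjusted p = 0.184) with all 3 NRF2 siRNA scores above the control scores. Of the other 6 distal regions of GCLC, 4 were tested and had changes between -0.67 and -0.20 that did not pass the test. The remaining 2, distal regions 7 and 8 upstream of the gene, were called in 2 and 1 control libraries and not with NRF2 siRNA.

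Over the whole of GCLC the peaks covered 29.5, 34.7 and 39.8 kb in control libraries and 9.7, 23.1 and 28 kb with NRF2 siRNA. Covered length follows the length of a list, so it was divided by the total length called in the library (46.3 to 113 Mb). GCLC then took 0.456, 0.408 and 0.351 kb per Mb called in control libraries and 0.209, 0.272 and 0.265 with NRF2 siRNA, and the groups remained apart. At GCLM, GSS, GSR, SLC7A11, GPX2 and GGT1 the groups overlapped on this scale. This readout was added after the data were seen. The share of all genes with groups apart on it was not counted, so the GCLC result has no background beside it.

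At GCLM the promoter had a lower rank with NRF2 siRNA, by an amount that narrowly missed the test. GCLM start region 1 (chromosome 1, 94369700 to 94375849), over the UTR and coding exon at its main start, stood at percentiles 73.1, 78.8 and 81.8 in control lists. The NRF2 siRNA values were 38, 40.4 and 54.4, each below every control value. The change was -0.80 (SE 0.21), with a limma adjusted p of 0.0619, and of 0.0366 with the replicate block. Covered length overlapped between the groups, at 4.04, 5.54 and 5.88 kb in control libraries and 4.38, 5.1 and 5.94 kb with NRF2 siRNA. The core match 30 bases upstream of the main start was under the peak in all 3 control libraries and in NRF2 siRNA replicates 2 and 3. The start of DNTTIP2, a neighbouring gene 29.6 kb downstream of the GCLM start, had a change in the same direction. It stood at 82.5, 73.3 and 77.1 in control lists and at 36.3, 54.6 and 58 with NRF2 siRNA (change -0.63, adjusted p = 0.126), and its peak covered 2.01, 2.98 and 2.71 kb in control libraries and 0.993, 1.1 and 1.42 kb with NRF2 siRNA.

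GSS and GSR, the synthetase and the reductase, had the changes that passed the test at distal regions and not at their starts. GSS start region 1 (chromosome 20, 33542739 to 33544274) lies over UTR sequence of both GSS and MYH7B, so a peak there cannot be assigned to either gene. It stood at 64.7, 77.5 and 80.3 in control lists and at 66.4, 60.3 and 57.8 with NRF2 siRNA, with a change of -0.32 (adjusted p = 0.474). GSS distal region 1 (chromosome 20, 33494259 to 33497213) lies over coding exons of ACSS2, an acetyl-CoA synthetase gene, 46.4 kb downstream of the GSS start. It stood at 49.2, 71.4 and 72 in control lists and at 88.8, 89.8 and 88.2 with NRF2 siRNA. The groups were apart, and the score rose by 0.86 (SE 0.206, adjusted p = 0.0453). This call was lost in each of the 6 fits that left out 1 library (adjusted p between 0.062 and 0.16, changes between 0.78 and 0.95) and with the siRNA 30 pairs alone (0.0665). GSS distal region 2, also in ACSS2, stood at 21 and 15.7 in control replicates 2 and 3 and was not called in control replicate 1. The NRF2 siRNA values were 29, 34.7 and 36.1 (change 0.75, adjusted p = 0.124).

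GSR start region 1 (chromosome 8, 30577371 to 30586193) stood at 83.1, 89.1 and 92 in control lists and at 65.5, 87.7 and 90.8 with NRF2 siRNA. The low value is that of the siRNA 28 library, the others lay within the control range, and the change was -0.16 (adjusted p = 0.722). Inside the gene, 23.8 kb downstream of the start, the direction was the opposite. GSR distal region 2 (chromosome 8, 30554225 to 30561596), which contains coding exon sequence, stood at 62.7, 58.8 and 59.7 in control lists and at 92.3, 93.7 and 91 with NRF2 siRNA. The score rose by 1.22 (SE 0.226, adjusted p = 0.0218), and by 1.09, 1.30 and 1.26 in the 3 pairs. It covered 3.74, 5.82 and 6.09 kb in control libraries and 7.04, 7.37 and 7.13 kb with NRF2 siRNA, and per Mb called the groups overlapped (0.0538 to 0.0685 kb against 0.0675 to 0.152 kb). The call was lost without control replicate 2 (adjusted p = 0.0844), control replicate 3 (0.0906) or NRF2 siRNA replicate 2 (0.0983), at changes between 1.09 and 1.20. The neighbouring starts of UBXN8 and GTF2E2 had changes of -0.38 (adjusted p = 0.29) and -0.14 (adjusted p = 0.752).

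SLC7A11 lay under the longest region of the set. Its start region (chromosome 4, 139134538 to 139181330) spans 46.8 kb, from upstream of the gene across its UTR and coding exons, and a long region has more chances of holding a high peak. It stood at percentiles 98.2, 96.4 and 96.6 in control lists and at 78.9, 88.2 and 90.3 with NRF2 siRNA. The groups were apart, and the change of -0.74 (SE 0.209) did not pass the test (adjusted p = 0.0765, and 0.0529 with the replicate block). The region was called as 2, 2 and 1 peaks in control libraries, which covered 43, 43.3 and 45.3 kb. The NRF2 siRNA libraries had 4, 6 and 4 peaks there, which covered 30.5, 37.3 and 41 kb. The lower percentiles thus compare longer peaks with shorter pieces in most libraries, and the effect of this division on the change was not tested. The peak over the main start ran from -16.897 to 10.352 kb in control replicate 1 (negative values lie upstream), at percentile 98.2. In NRF2 siRNA replicate 3 it was of similar extent, from -17.396 to 8.555 kb, and stood at 90.3. Per Mb called in the library the region took 0.664, 0.509 and 0.4 kb in control libraries and 0.659, 0.44 and 0.388 kb with NRF2 siRNA, and on this scale the groups overlapped. The peak over the main start was the highest of the region in 5 of 6 libraries, and in NRF2 siRNA replicate 1 it stood at 78.4. SLC7A11 distal region 2, in an intron 35.9 kb into the gene, stood at 71, 57.1 and 59.4 in control lists and at 61.3, 69 and 74 with NRF2 siRNA, with a change of 0.26 (adjusted p = 0.583). Distal region 1 had a change of 0.33 (adjusted p = 0.536), and distal region 3 was called in 1 control library alone.

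**Figure D4:**
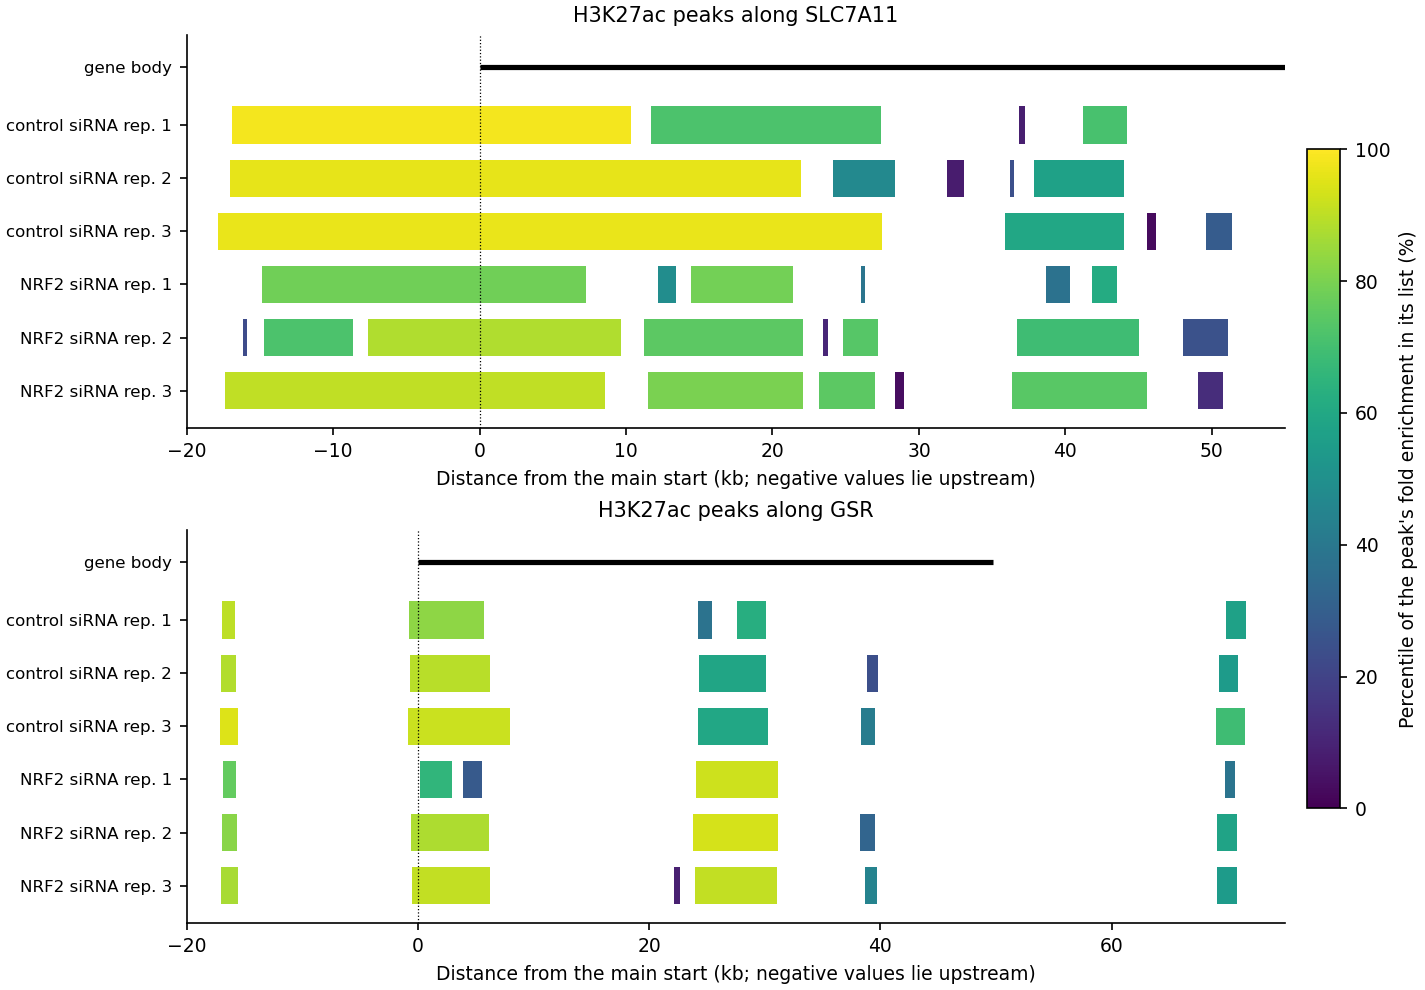
Peaks of each library along SLC7A11 (top) and GSR (bottom), by distance from the main start in kb and coloured by the percentile of their fold enrichment in their own list. At SLC7A11 the start region is called in more pieces with NRF2 siRNA, and the peak over the main start is lower. At GSR the intragenic peak 23.8 kb downstream of the start is higher with NRF2 siRNA in all 3 libraries.

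GPX2 and GGT1 act on glutathione once it is made. The GPX2 region (chromosome 14, 65402845 to 65411879) holds the whole of this short gene and also coding exon sequence of CHURC1. It stood at 93.9, 91.3 and 91.8 in control lists and at 73.4, 82.5 and 83.7 with NRF2 siRNA. The groups were apart, the pairs gave -0.72, -0.43 and -0.39, and the change of -0.51 did not pass the test (adjusted p = 0.171). The core match 118 bases upstream of the main start was under the peak in 6 of 6 libraries. GGT1 start region 1 (chromosome 22, 24995320 to 25000700) stood at 87, 88.6 and 93.4 in control lists and at 64, 87.4 and 89.6 with NRF2 siRNA (change -0.27, adjusted p = 0.497). GGT1 start region 2, 3.03 kb downstream of the main start, stood at 76.6, 72.3 and 81.9 and at 55.8, 68.2 and 77.3 (change -0.19, adjusted p = 0.621). The neighbouring start of LRRC75B had a change of -0.31 (adjusted p = 0.392), and GGT1 distal region 1, in an intron of SNRPD3, one of -0.18 (adjusted p = 0.744). GGT1 belongs to a family of closely similar genes, and the effect on its values of the authors' filter on mapping quality, which drops reads that align as well elsewhere, was not tested.

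The start regions were also set in order of level within each group. In control lists the mean percentile was 99.8 ± 0.0144 (SD, n = 3) for GCLC start region 2, 97.1 ± 1.00 for SLC7A11 and 92.4 ± 1.39 for GPX2. GGT1 start region 1, GSR and GCLC start region 1 followed at 89.7 ± 3.33, 88.1 ± 4.56 and 82.5 ± 3.95. GCLM, GGT1 start region 2 and GSS were the lowest at 77.9 ± 4.42, 77.0 ± 4.78 and 74.2 ± 8.34. The replicate ranges of the top 3 did not overlap, and from GPX2 down each region overlapped the next in this order. With NRF2 siRNA the means were 92.0 ± 7.19 for GCLC start region 2 and 85.8 ± 6.03 for SLC7A11. GSR, GGT1 start region 1 and GPX2 then lay together at 81.3 ± 13.8, 80.3 ± 14.2 and 79.9 ± 5.60. GCLC start region 1, GGT1 start region 2 and GSS followed at 69.4 ± 9.09, 67.1 ± 10.8 and 61.5 ± 4.43, and GCLM was the lowest at 44.3 ± 8.83. In this group only GSS and GCLM, among neighbours in the order, had ranges that did not overlap.

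**Figure D5:**
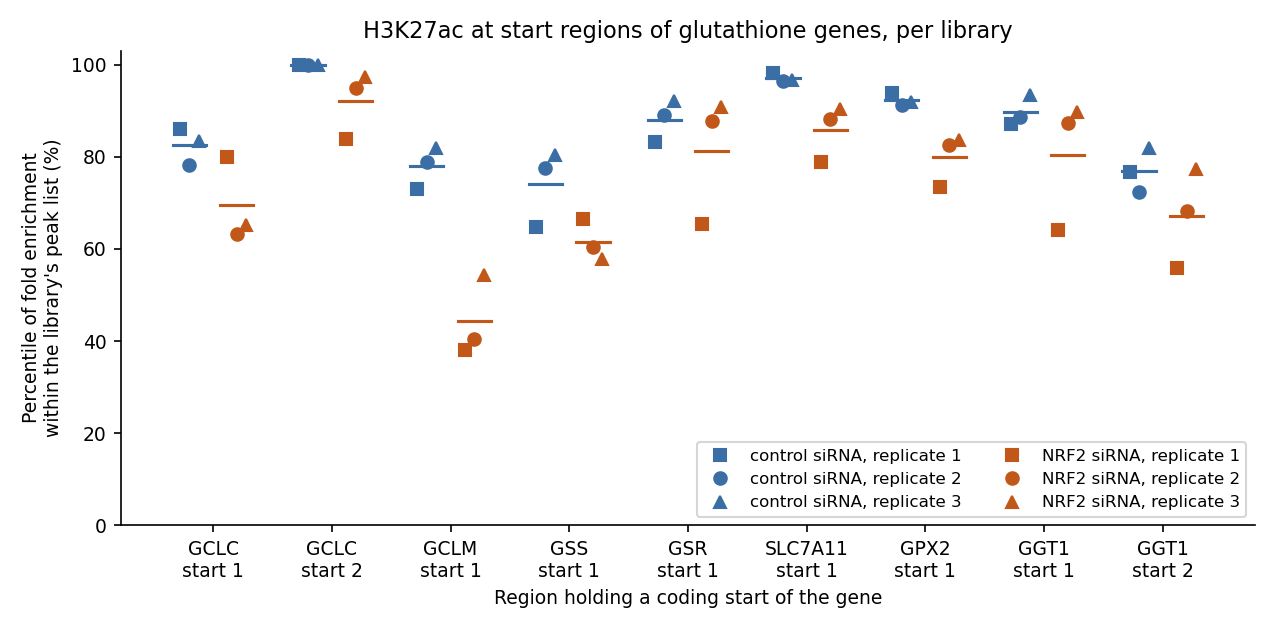
Percentile of the 9 start regions in each library (vertical axis, %), with control siRNA in blue, NRF2 siRNA in orange, a marker shape for each replicate and lines at the group means. By percentile the groups do not overlap at GCLC start 2, GCLM, SLC7A11 and GPX2, and by normal score they are also apart at GGT1 start 1. At GSR and both GGT1 regions NRF2 siRNA replicate 1 is the lowest point.

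Covered length gave a second view of the same peaks. Among the 13 tested regions with a coding start, all 3 NRF2 siRNA libraries covered less than every control library at 4, namely both GCLC start regions, SLC7A11 and DNTTIP2, beside 7.9% of all regions with a coding start. None of the 13 was longer in this sense, beside 0.836%. Per Mb called, 3 of the 13 were shorter (SLC7A11 no longer), beside 6.92%, and none was longer, beside 2.9%. Of the 14 distal regions 2 were shorter, beside 10.9%, and 1 was longer (GSR distal region 2), beside 5.36%. The shorter ones were GCLC distal region 6, and region 9, which no NRF2 siRNA library called and which could therefore only be shorter. Per Mb called, GCLC distal region 1 was shorter too, and GSR distal region 2 overlapped between the groups. The share of all distal regions on that scale was not counted.

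The main start itself was under a peak in all 3 control libraries for each of the 7 genes. In NRF2 siRNA replicate 1 it was under no peak for 4 of them (GCLC, GCLM, GSS and GSR), beside 25% of the 6226 genes whose start was covered in all control libraries. That list is the shortest of the 6. In NRF2 siRNA replicates 2 and 3 all 7 starts were covered, and 2.71% and 0.835% of the 6226 were not. The uncovered starts of these 7 genes were thus all in the siRNA 28 library.

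Start regions of other genes were ranked by how near their scores in the 6 libraries came to the median scores of the 7 main start regions (1.21, 1.20 and 1.26 in control, 0.77, 0.92 and 0.87 with NRF2 siRNA). Among 9919 such regions the nearest were those of RSPO3, RBM47, KCTD1, RCCD1 and the start shared by ACTMAP and SNRPA, at distances of 0.122 to 0.18 score units and with changes from -0.43 to -0.27.

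Other genes of glutathione use and supply were read in the same way. A list of 24 such genes (peroxidases, breakdown enzymes, transporters, precursor enzymes and glutaredoxins) had 61 tested regions, of which 5 passed the threshold as lower and none as higher by limma, beside 3.39% and 2.01% over all regions. An unadjusted p under 0.05 was found for 10 of the 61, beside 22.5%. Their median change was -0.15. All 5 lower regions were distal. Of these, 3 passed the filter through the control libraries alone, which left almost no room for a rise, so their direction carries no weight. The 5 lay near ANPEP, an aminopeptidase that acts on glutathione breakdown products, at ABCC1 (2 regions), an exporter of glutathione and its conjugates, and near GLRX (2 regions), a glutaredoxin. One of the ABCC1 regions (chromosome 16, 16079053 to 16086586) stood at 95.7, 98.5 and 98.6 in control lists and at 43.5, 83.5 and 88.7 with NRF2 siRNA, a change of -1.22 (adjusted p = 0.0299). The start regions of SLC1A5, a glutamine transporter, and OPLAH, the enzyme that opens 5-oxoproline, had changes of -0.91 (adjusted p = 0.0519) and -0.77 (adjusted p = 0.0837).

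The thioredoxin genes, the other large thiol system of the cell, were the nearest comparison. In 13 genes with 30 tested regions, 2 passed the threshold as lower and none as higher by limma, beside 3.39% and 2.01% over all regions. An unadjusted p under 0.05 was found for 7 of the 30, beside 22.5%, and the median was -0.15. Both lower regions were start regions. That of TXN, thioredoxin itself (chromosome 9, 113016634 to 113021981), stood at 98.9, 99.4 and 99.5 in control lists and at 64.6, 82.5 and 82.9 with NRF2 siRNA, a change of -1.62 (adjusted p = 0.00677). That of SRXN1, sulfiredoxin, stood at 94.1, 92.3 and 92.1 and at 56.8, 57.9 and 70.7, a change of -1.06 (adjusted p = 0.0267). The 19 tested thioredoxin regions with a coding start had a median change of -0.19, beside -0.37 for the 9 start regions of the glutathione genes, and this difference was not tested.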

How the data were processed

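H3K27ac ChIP-seq of A549 cells was analysed from 6 broad peak lists, 1 for each library. Per the study's methods, the authors mapped the reads on hg19 (Bowtie2 2.2.6), filtered them on mapping quality, called peaks library by library (MACS2 2.1.0.20151222) and removed blacklisted ones. The deposited lists give each peak an integer score, a fold enrichment (a ratio) and a p-value and q-value as −log10. Whether an input library served as background is not given in the sources used here. The study's reporting summary gives the mapped reads of each library, but the lists hold no read counts for a region. No interval for a single library could therefore be given. Of 202238 peaks, 136 lay on unplaced contigs.

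Genes came from GENCODE 44 lifted to GRCh37. A region that a library had not called took its tied lowest rank. Scores were fitted with limma 3.58.1 (lmFit, eBayes; R 4.3.3; p-values adjusted after Benjamini and Hochberg), after tests on simulated data. Deviations from the group means correlated within each replicate number across regions (r = 0.398, 0.199 and 0.363). Libraries of the same number, from the sample titles, were therefore read as pairs, and the replicate block was an alternative. The study states no block, so the fit without it was the main one. The source of the correlation, such as the lower read depth of replicate 1, was not tested. Others were equal list lengths (the 23885 highest peaks), a stricter q-value (1e-05 or less), other merging, filters, readouts and windows, trended robust variance, leaving out each library, and the siRNA 30 pairs alone.

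Named regions were every start and neighbouring start region, the distal region of each gene with the highest mean percentile and that with the lowest p, and every region past the threshold. Distal regions named beyond this rule were chosen after their values were seen. Covered length, in kb and per Mb called, was added as a readout after the data were seen. The members and lists were chosen with earlier results of these data known. Other steps used Python 3.11.15, pandas 2.3.3 and pysam 0.24.0.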

Additional observations from a re-analysis of the deposited data

Results flagged for a closer look

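In 3 tested regions the score change had one sign in the siRNA 28 pair and the other in both siRNA 30 pairs. At GSS start region 1 the change was 0.19 with siRNA 28 and -0.50 and -0.66 with siRNA 30, a difference of 0.77. At SLC7A11 distal region 2 it was -0.07 against 0.31 and 0.54, a difference of -0.50. At GCLC distal region 2 the difference was 0.68, but neither library of replicate 1 called the region, so its value of 0.25 there is the gap between the tied lowest scores of these lists and measures no change at the region. A limma term for the difference between the siRNAs, which has 1 siRNA 28 pair to rest on, gave adjusted p-values of 0.324, 0.477 and 0.358 for these regions. That term passed the threshold at 0 of the 32673 regions, with 5040 at an unadjusted p under 0.05, among them 2 of the 27 regions near the glutathione genes. Replicate 1 also had fewer mapped reads in both groups, and its peak names differ in form from those of the other replicates. The siRNA, the read depth and whatever else sets replicate 1 apart cannot be told apart.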

How the results depend on the processing

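Over 16 alternatives, the 22 named regions including NFE2L2 and NQO1 gave 345 values, of which 312 kept both direction and side of the threshold, 15 lost a call, 16 gained one and 2 changed sign. The sign changes were at GGT1 distal region 1, to 0.072 without NRF2 siRNA replicate 1 and 0.016 with the siRNA 30 pairs only. The count of regions called lower, 1, became 3 with the replicate block and with the trended robust variance, and 2 with equal list lengths, a q-value of at most 1e-05, regions called in all libraries, the siRNA 30 pairs only or a window of 100 kb. The count called higher, 2, became 1 with no filter, the highest −log10 p-value, the siRNA 30 pairs or a window of 5 kb. Leaving out 1 library gave 0 to 2 lower and 0 to 1 higher regions. Without control replicate 2 the limma test called 0 of all 32673 regions at 6033 unadjusted p-values under 0.05, so fewer calls there reflect the whole fit.

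The median change of -0.28 over all 27 regions was -0.41 with equal list lengths, -0.49 with the stricter q-value, -0.49 with regions called in all libraries, -0.24 with the −log10 p-value and -0.37 with siRNA 30, and -0.33 to -0.21 with 1 library left out. That of the start regions, -0.37, was -0.46, -0.57, -0.55, -0.45 and -0.51 under the same settings, -0.31 with no filter, -0.54 with the length-weighted mean fold, and -0.53 to -0.34 with 1 library left out. That of the distal regions, 0.02, was -0.09 with equal list lengths, 0.66 with the stricter q-value, 0.89 with regions called in all libraries, -0.13 with no filter, 0.15 with the length-weighted mean, 0.14 with siRNA 30, 0.22 and 0.21 with windows of 5 and 100 kb, and -0.08 to 0.14 with 1 library left out. The stricter settings test fewer regions. The other causes were not tested.

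Besides the 2 lower calls it added, the replicate block brought NQO1 to an adjusted p of 0.0223, under the threshold, and left the calls of the other named regions as they were. Peak lists give no read counts, so small changes below the calling limit cannot be seen.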
